A study of Mus musculus with 12 samples.

Results

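The Slc25 family of mitochondrial carriers was described across 3 treatments of mouse kidney tubuloids. Its members were the protein-coding rows of the deposited RNA-seq table whose gene symbol begins with Slc25a, 43 genes of 20819 in all and of 15422 protein-coding ones. The choice used names only and no measured value. Tubuloids are clusters of renal tubular epithelial cells, grown here in Matrigel from dissociated kidney cortex of 4 mice of wildtype genotype, and the labels used here give no strain, age or sex. Treatment lasted 12 h and was vehicle alone, myoglobin alone, or myoglobin plus dexamethasone at 100 nM, with 4 libraries per group made from total RNA with a stranded messenger RNA kit. Myoglobin, the haem protein of muscle, is named in the series' design as the agent that injures the tubules, and dexamethasone is a synthetic glucocorticoid. No group received dexamethasone alone, so its addition was measured only in the presence of myoglobin. The labels do not say which mouse each library came from or that a replicate number stands for a mouse, so p-values measure only the spread between these libraries.

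Carriers of this family sit mostly in the inner mitochondrial membrane, which charged metabolites do not cross freely. They exchange or carry nucleotides, phosphate, di- and tricarboxylates, amino acids, cofactors, acylcarnitines and iron between cytosol and matrix. They share a fold of repeated modules, each with a pair of membrane-spanning helices, and are imported by the TIM22 complex with the help of small TIM chaperones. In the kidney tubule, which depends on oxidative metabolism, they link ATP export, fuel entry and ammonia and glucose metabolism to the respiratory chain.

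Of the 43 genes, 41 had 4 or more libraries at 10 or above and were tested. The values are normalised read counts per gene as deposited, whole numbers that behave as reads divided by a library factor and rounded. The others were Slc25a18, a glutamate carrier listed at 0 in all vehicle libraries and at 0 to 6 elsewhere, and Slc25a34, a carrier of unsettled substrate listed at 0 to 4. Slc25a2, Slc25a31, Slc25a41 and Slc25a54 were not analysed here. The summed value of the family was 0.299% to 0.303% of the library with vehicle, 0.303% to 0.308% with myoglobin and 0.313% to 0.33% with both agents, the highest in replicate 4.

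Deposited values summed to 5.25 to 5.73 M per library, and the reads estimated from the steps between values were 4.85 to 5.92 M in 11 libraries and 3.25 M in replicate 4 of myoglobin with dexamethasone. That library stood apart from its group, and 2179 genes were listed at 0 in it. Its log2 value against the mean of the other 3 libraries of its group was higher for densely covered genes: the median was 0.38 in the 2 members with a mean value of at least 0.3 per exonic base, 0.25 in the 14 members between 0.1 and 0.3, and 0.01 in the 25 members below. Over all tested genes these medians were 0.40, 0.16 and -0.08. Across the 41 members Spearman's rho between coverage and this deviation was 0.733 and Pearson's r was 0.720, given as a description because the points share 4 libraries. Counts of members are therefore given with and without this library. Of the labelled cell type, the epithelial markers Epcam, Cdh1, Krt8 and Krt18 summed to 4881 to 4967 with vehicle, 4537 to 4934 with myoglobin and 4943 to 7182 with both. The 7182 came from a single library, which held the highest value of each of these genes in its group. None of these genes was called in any comparison. Of 7 genes listed as proximal tubule markers, Cubn, Slc34a1, Slc5a2 and Aqp1 had a mean below 10 over all 12 libraries. Hnf4a was also low, at means of 12, 10.8 and 16.5 in the 3 groups. The sums were 926 to 1039, 1044 to 1167 and 1033 to 1159. Pax8 and Lrp2 carried them, Pax8 the most, so the sums are a weak measure of proximal tubule cells. Pax8, at a vehicle mean of 714, was not called, and Lrp2, at means of 233, 387 and 332, was higher in both comparisons with vehicle. The 7 distal nephron markers summed to 3081 to 3830, 2537 to 2896 and 3228 to 3568, and 5 of the 6 that were tested fell with myoglobin. With both agents against vehicle 5 of the 6 were lower too, and the sum was carried by Calb1, which was higher in all 3 comparisons. Other cell types were present at low or moderate level: summed podocyte markers lay at 666 to 991, 569 to 799 and 612 to 723, stromal markers at 129 to 208, 123 to 186 and 86 to 118, and endothelial markers at 57 to 63, 30 to 62 and 34 to 49, with Pecam1, Cdh5, Kdr, Tek and Emcn below a mean of 10. Immune markers summed to 566 to 687, 475 to 578 and 523 to 627, with Itgam and Csf1r below a mean of 10. The part of such shifts in the results on the carriers was not tested, and in bulk RNA fewer cells of a type and less RNA per cell cannot be told apart.

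**Figure D1:**
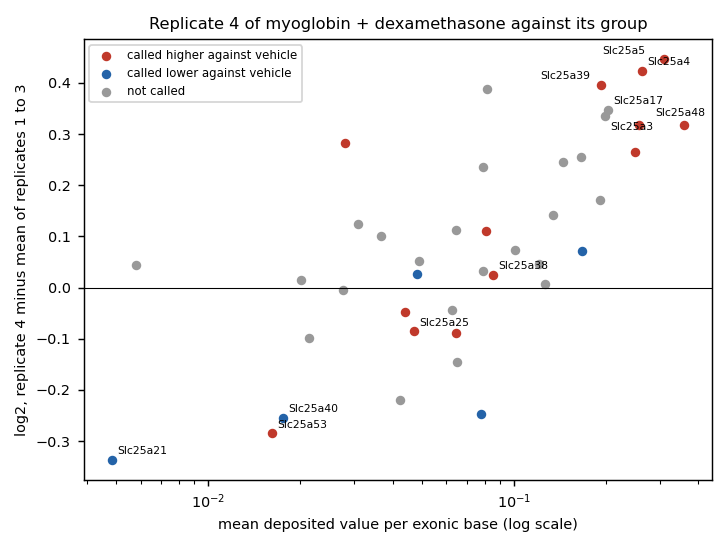
Log2 value of replicate 4 of myoglobin with dexamethasone minus the mean of replicates 1 to 3 (vertical axis) against the mean deposited value per exonic base (horizontal axis, log scale), 1 point for each of the 41 tested Slc25a genes, coloured by the call of myoglobin with dexamethasone against vehicle. The deviation ran from -0.34 for Slc25a21 to 0.45 for Slc25a5 and was highest among densely covered genes.

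Promoters of the carriers with the largest rises under myoglobin, Slc25a53 and Slc25a25, and of the 4 that rose when dexamethasone was added are shown. These genes were picked by their calls, and Slc25a32, the other member that rose with myoglobin, is not shown. RefSeq promoters of build GRCm38.p6, 250 bases before to 50 after the start, matched 34 of the 43 members by symbol, with 44 promoters in all. The stretches below are the bases before the start that no annotated exon covers, written 5' to 3' on the gene's strand, and capitals mark matches on either strand to the searched motifs. Slc25a53, Slc25a21 and Slc25a25 have more than 1 RefSeq start, of which 1 each is shown. They are the stretches of Slc25a53 at chrX:137038303-137038552 (minus strand), Slc25a25 at chr2:32424067-32424316 (minus) and Slc25a48 at chr13:56438105-56438354 (plus). The others are of Slc25a21 at chr12:57197473-57197722 (minus), Slc25a17 at chr15:81360813-81361015 (minus) and Slc25a29 at chr12:108835884-108836045 (minus). The stretch of Slc25a29 is the gap to the divergent Slc25a47 in the table's coordinates, and the RefSeq promoter of Slc25a47 lies elsewhere.
Slc25a53: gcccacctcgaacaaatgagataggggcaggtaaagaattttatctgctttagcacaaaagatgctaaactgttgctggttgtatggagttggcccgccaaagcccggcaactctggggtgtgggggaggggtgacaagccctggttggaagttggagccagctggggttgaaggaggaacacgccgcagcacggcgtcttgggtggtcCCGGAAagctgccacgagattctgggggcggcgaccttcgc
Slc25a25: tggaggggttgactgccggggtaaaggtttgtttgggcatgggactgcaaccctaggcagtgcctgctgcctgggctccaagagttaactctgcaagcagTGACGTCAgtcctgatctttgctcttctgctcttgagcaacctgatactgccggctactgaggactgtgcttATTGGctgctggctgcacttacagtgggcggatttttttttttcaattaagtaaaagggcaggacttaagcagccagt
Slc25a48: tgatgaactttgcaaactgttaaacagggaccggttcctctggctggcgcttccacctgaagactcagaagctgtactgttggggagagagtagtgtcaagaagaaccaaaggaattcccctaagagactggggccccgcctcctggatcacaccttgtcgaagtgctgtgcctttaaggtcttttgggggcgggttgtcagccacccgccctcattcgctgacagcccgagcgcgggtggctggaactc
Slc25a21: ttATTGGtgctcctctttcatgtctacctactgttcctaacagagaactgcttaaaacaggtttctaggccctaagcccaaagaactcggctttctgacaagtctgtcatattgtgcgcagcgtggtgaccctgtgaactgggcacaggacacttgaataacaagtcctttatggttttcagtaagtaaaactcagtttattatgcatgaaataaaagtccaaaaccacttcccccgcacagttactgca
Slc25a17: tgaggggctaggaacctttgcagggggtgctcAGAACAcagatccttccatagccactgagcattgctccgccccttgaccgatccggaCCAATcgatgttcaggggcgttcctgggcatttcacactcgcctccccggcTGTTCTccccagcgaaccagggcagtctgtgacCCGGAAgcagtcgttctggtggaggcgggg
Slc25a29: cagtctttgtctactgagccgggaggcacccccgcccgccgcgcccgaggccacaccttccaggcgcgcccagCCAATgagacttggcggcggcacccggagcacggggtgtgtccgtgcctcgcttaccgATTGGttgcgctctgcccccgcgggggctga
Slc25a53 held the ETS core CCGGAA 41 bases before its start, and the Slc25a25 stretch held the cAMP response palindrome TGACGTCA 150 bases before and a CCAAT box 78 bases before. Slc25a17 held the glucocorticoid receptor hexamer TGTTCT 218 and 110 bases before its start. Slc25a48 held none of the motifs searched, while the start of Slc25a21 shown here held 1 CCAAT box and Slc25a29 held 2. The starts not shown held other matches: in Slc25a53 the antioxidant response core TGACNNNGC 14 bases after the start and a CCAAT box 101 bases before, and in Slc25a21 the hypoxia core ACGTG 36 bases after. Of the 2 other starts of Slc25a25, the outermost held TGACNNNGC 100 and 31 bases before, CCGGAA 7 bases after and 3 CCAAT boxes, and the middle one held CCAAT boxes 86 and 32 bases before.

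Over the whole windows of the 44 member promoters, TGTTCT was found in 6.82%, against 19% of the 32851 mouse promoters in the RefSeq table. The full glucocorticoid palindrome, AGAACA and TGTTCT with any 3 bases between, was found in 0 member promoters and in 0.00913% of all. The antioxidant response core TGACNNNGC was found in 27.3% of member promoters and 12.4% of all, CCGGAA in 25% and 14.9%, and CCAAT in 50% and 37.4%. The E-box CACGTG was found in 15.9% and 7.15%, and the hypoxia core ACGTG, which lies inside it, in 27.3% and 19.6%. TGACGTCA was found in 4.55% and 1.79%. TGATGNAA, the ATF4 composite core, was found in 0 member promoters and 3.97% of all, and TCAAGGTCA, the oestrogen-related receptor element, in 0 and 0.423%. A match says only that these letters are in the window.

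Levels per length differed widely within the family. In vehicle libraries the highest normalised read count per kb of exon was that of Slc25a48, a carrier linked to choline import, at 311 with a range of 293 to 329. Slc25a5, an ADP/ATP carrier, followed at 279 (272 to 284), below every Slc25a48 library. Slc25a4, the other main ADP/ATP carrier, the oxoglutarate carrier Slc25a11 and the citrate carrier Slc25a1 came next at 240, 237 and 236 per kb, and their ranges overlapped. The peroxisomal carrier Slc25a17 had 199, above the phosphate carrier Slc25a3 at 188, and Slc25a3, Slc25a23, Slc25a37 and Slc25a39 did not separate between 179 and 188. Among tested genes, Slc25a53 had 10.5 per kb, Slc25a21 7.34 and Slc25a43 7.02, the last 2 with overlapping ranges. These lengths are of all annotated exons together, so a gene with exons unused in these cells reads lower.

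**Figure D2:**
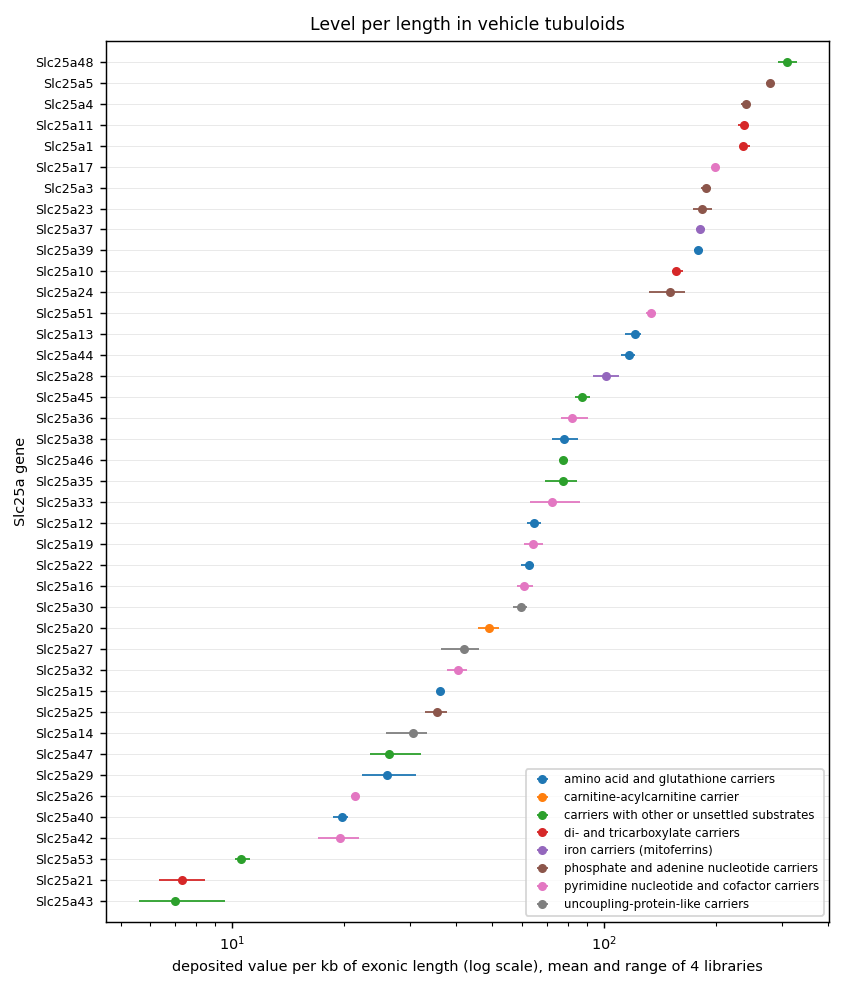
Normalised read count per kb of exon for the 41 tested Slc25a genes in vehicle tubuloids (horizontal axis, log scale), coloured by role. Points are means and bars the range of 4 libraries, and the levels run from 7.02 for Slc25a43 to 311 for Slc25a48.

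The first comparison asked which carriers differed after 12 h of myoglobin. Slc25a53, Slc25a25 and Slc25a32 rose and Slc25a21, Slc25a30, Slc25a45 and Slc25a23 fell, 7 of the 41 tested members or 17.1%. Of all 14558 genes tested, 18.3% were called in this comparison, 8.71% higher and 9.62% lower. In this fit the family's share lay near that of the transcriptome, which did not hold for every alternative. Calls are at an adjusted p below 0.05 in limma-trend on log2 of the value plus 1, Benjamini-Hochberg adjusted over all genes tested, and changes are log2 differences with SE on that scale. The median change of the 41 members was 0.06 and that of all tested genes 0.00. The 4 libraries of each group did not overlap in 7 members that were higher and 5 that were lower, beside 25% of all tested genes with groups apart. Without replicate 4 of myoglobin with dexamethasone, which enters the shared spread, 10 of the 41 members were called higher and 4 lower. Of all genes 26.1% were then called, 13.3% higher and 12.8% lower. The 7 members added were Slc25a1, Slc25a4, Slc25a5, Slc25a10, Slc25a13, Slc25a37 and Slc25a48.

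Slc25a53, an X-linked carrier whose substrate is not settled (ENSMUSG00000044348, chrX:136981116-137038302), had the largest rise of the family. It read 81, 89, 81 and 84 with vehicle, 166, 154, 127 and 139 with myoglobin, and 173, 150, 161 and 132 with both agents. Every myoglobin library lay above every vehicle library, and the groups with and without dexamethasone overlapped. Means went from 83.8 ± 3.78 (SD, n = 4) to 146 ± 17.1 and 154 ± 17.4. The change with myoglobin was 0.79 ± 0.10 (1.73-fold; limma adjusted p = 3.54e-05), the further change with dexamethasone 0.07 ± 0.10 (limma adjusted p = 0.71), and that of both agents against vehicle 0.86 ± 0.10 (limma adjusted p = 1.25e-05).

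Slc25a25 (ENSMUSG00000026819, chr2:32414487-32451445) belongs with Slc25a23 and Slc25a24 to the ATP-Mg/phosphate carriers, which calcium binding regulates and which set the adenine nucleotide content of the matrix. Slc25a25 read 273, 289, 259 and 297 with vehicle, 412, 404, 431 and 408 with myoglobin, and 411, 410, 450 and 399 with both. All 8 treated libraries lay above all vehicle libraries, and the change with myoglobin was 0.57 ± 0.05 (1.48-fold; limma adjusted p = 1.60e-06). Adding dexamethasone changed it by 0.01 ± 0.05 (limma adjusted p = 0.921), and the change of both agents against vehicle was 0.58 ± 0.05 (limma adjusted p = 1.07e-06). The exons of Slc25a25 overlap those of Naif1 on the opposite strand, whose mean was 105 ± 14.9 with vehicle and 101 ± 12.0 with myoglobin (n = 4 each). Whether the counting used strand is not given in the sources used here.

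Its relative Slc25a23 (chr17:57043711-57059863) moved the other way. The values were 1034, 955, 977 and 919 with vehicle, 864, 813, 797 and 732 with myoglobin, and 898, 853, 852 and 911 with both. Every treated library was below every vehicle library. The change was -0.28 ± 0.05 with myoglobin (0.825-fold; limma adjusted p = 0.00112), 0.13 ± 0.05 on adding dexamethasone (limma adjusted p = 0.137), and -0.14 ± 0.05 for both against vehicle (limma adjusted p = 0.0472, above 0.05 in 9 of 22 alternatives). Slc25a24, the third of these carriers, read 453 to 565, 403 to 535 and 427 to 545 in the 3 groups and was not called in any comparison.

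The ADP/ATP carriers exchange ATP made in the matrix for cytosolic ADP. Slc25a4 (chr8:46206797-46211284) read 550, 550, 579 and 577 with vehicle, 576, 619, 634 and 596 with myoglobin, and 625, 629, 615 and 836 with both. Slc25a5 (chrX:36795651-36798807) read 468, 448, 464 and 459, then 466, 512, 520 and 503, then 531, 525, 505 and 709. In both genes every library of the group with both agents lay above every vehicle library, and replicate 4 was the highest. With myoglobin they changed by 0.10 ± 0.08 and 0.12 ± 0.08 and on adding dexamethasone by 0.15 ± 0.08 and 0.17 ± 0.08, none of these called. Against vehicle both rose with both agents, Slc25a4 by 0.25 ± 0.08 (limma adjusted p = 0.0252) and Slc25a5 by 0.29 ± 0.08 (limma adjusted p = 0.0152). The call of Slc25a4 was lost without vehicle replicate 1 or 2 and in a fit of the 2 groups alone (limma adjusted p up to 0.0667), and kept without replicate 4 of myoglobin with dexamethasone. Without that library the rises were smaller, 0.14 ± 0.04 for Slc25a4 (limma adjusted p = 0.0104) and 0.18 ± 0.04 for Slc25a5 (limma adjusted p = 0.0045). Reads of these closely related genes and of their processed copies can be split differently by a counting rule, so their single values are uncertain. The phosphate carrier Slc25a3 read 1007 to 1072, 1076 to 1098 and 1080 to 1383 and was not called.

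Among carriers of pyrimidine nucleotides and cofactors, 1 of 9 tested (11.1%) rose with myoglobin and 0 fell, beside 8.71% of all tested genes called higher. It was Slc25a32 (chr15:39091231-39112716), which carries folate or flavin cofactors, at 230, 257, 233 and 260 with vehicle, 271, 292, 283 and 279 with myoglobin, and 292, 276, 273 and 271 with both. All treated libraries exceeded all vehicle libraries by a narrow margin. The change was 0.20 ± 0.06 with myoglobin (limma adjusted p = 0.0175), -0.02 ± 0.06 on adding dexamethasone (limma adjusted p = 0.889) and 0.18 ± 0.06 for both against vehicle (limma adjusted p = 0.0207). The call with myoglobin was lost after upper-quartile scaling and without vehicle replicate 1, vehicle replicate 3 or myoglobin replicate 2 (limma adjusted p up to 0.0699). The call with both agents against vehicle was lost in 5 of 22 alternatives (limma adjusted p up to 0.132). These were upper-quartile scaling, equal totals, and the fits without vehicle replicate 1 or 3 or without replicate 1 of myoglobin with dexamethasone.

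The 4 carriers that fell with myoglobin included the largest change of the family. Slc25a21 (ENSMUSG00000035472, chr12:56712634-57197472), the oxodicarboxylate carrier of lysine and tryptophan breakdown, read 41, 38, 31 and 33 with vehicle, 14, 15, 12 and 12 with myoglobin, and 22, 24, 23 and 18 with both. The 3 groups did not overlap, with vehicle highest and myoglobin lowest. Means were 35.8 ± 4.57, 13.2 ± 1.5 and 21.8 ± 2.63 (SD, n = 4 each). The change was -1.36 ± 0.17 with myoglobin (0.388-fold; limma adjusted p = 3.84e-05), 0.67 ± 0.17 on adding dexamethasone (1.60-fold; limma adjusted p = 0.0279), and -0.69 ± 0.17 for both against vehicle (limma adjusted p = 0.00757). The rise with dexamethasone missed the threshold in 6 of 22 alternatives, among them a fit of the 2 groups alone and the fits without myoglobin replicate 3 or 4 or without replicate 1, 2 or 3 of myoglobin with dexamethasone (limma adjusted p up to 0.0846). No more than 41 normalised reads stand behind any of its values.

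Slc25a30 (chr14:75760117-75787037), described as a kidney mitochondrial carrier of the uncoupling-protein-like group, read 266, 282, 259 and 284 with vehicle, 159, 173, 166 and 225 with myoglobin, and 182, 226, 207 and 208 with both. Treated libraries were all below vehicle, and replicate 4 with myoglobin was the highest of its group. The change was -0.60 ± 0.10 with myoglobin (0.658-fold; limma adjusted p = 3.08e-04), 0.20 ± 0.10 on adding dexamethasone (limma adjusted p = 0.244) and -0.41 ± 0.10 for both against vehicle (limma adjusted p = 0.00505). Without myoglobin replicate 4 the addition of dexamethasone was called (limma adjusted p = 0.0377). The other members of this group, Slc25a14 and Slc25a27, stood at 61 to 87 and 143 to 211 over all libraries and were not called.

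Slc25a45 (chr19:5877808-5885878), a carrier with a less settled substrate, read 233, 252, 231 and 247 with vehicle, 201, 202, 192 and 184 with myoglobin, and 221, 214, 224 and 185 with both. Vehicle was highest in every case. It fell by 0.30 on the log2 scale with myoglobin (SE 0.07; limma adjusted p = 0.00441), and differed by -0.19 ± 0.07 for both against vehicle (limma adjusted p = 0.0427, above 0.05 in 11 of 22 alternatives, among them the fit without replicate 4 of myoglobin with dexamethasone). Of the other carriers of unsettled substrate, Slc25a43 read 4 to 17 and was not called.

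**Figure D3:**
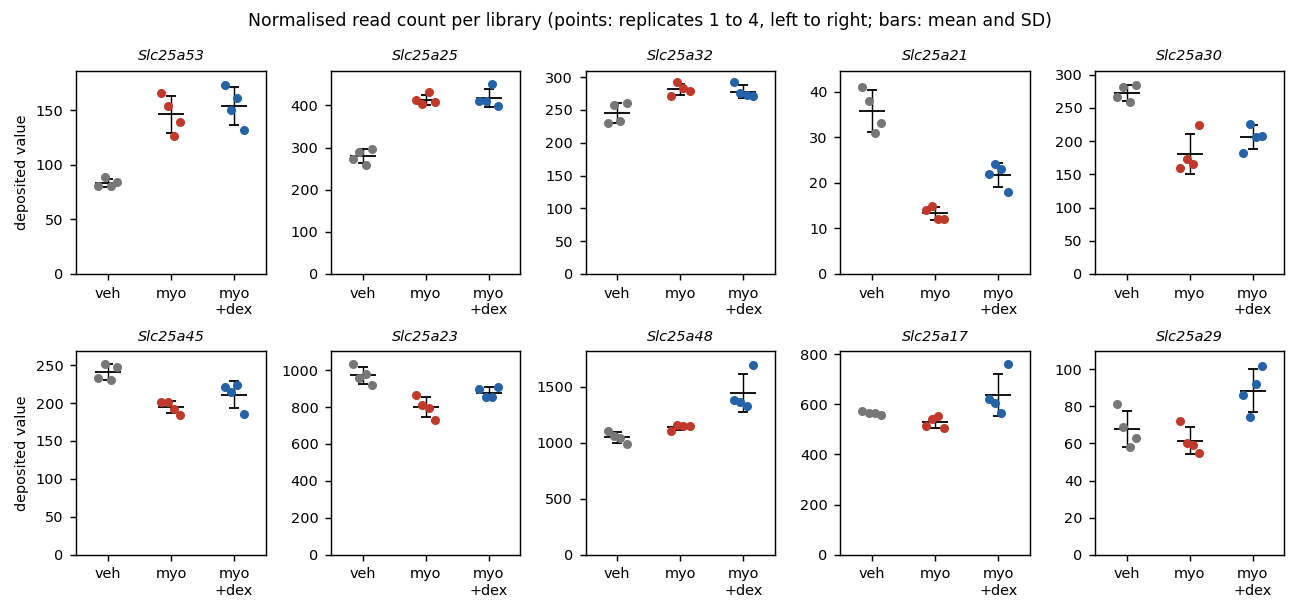
Normalised read count of 10 Slc25a genes in each of the 12 libraries, in panels with vehicle, myoglobin, and myoglobin with dexamethasone side by side. Points are libraries and bars are the mean and SD of 4. The vehicle libraries of Slc25a53 and Slc25a25 lie below all treated ones, those of Slc25a21 and Slc25a30 above, and Slc25a48 is highest with both agents.

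The second comparison asked what dexamethasone changed in the presence of myoglobin. Slc25a48, Slc25a17, Slc25a29 and Slc25a21 rose, and 0 members fell, 4 of 41 or 9.76%. Of all tested genes 6.98% were called, 3.08% higher and 3.9% lower, and the 4 members are a small count. Groups did not overlap in 4 members that were higher and 2 that were lower, beside 13.2% of all tested genes, 7.03% higher and 6.19% lower. Median changes were 0.10 for the members and 0.01 for all genes. At an unadjusted p under 0.05 limma gave 10 members, 2 of them lower, 24.4% of the members beside 22.2% of all tested genes. Without replicate 4 of the dexamethasone group the 3 called were Slc25a21, Slc25a48 and Slc25a17, with 8.81% of all genes called, 4.02% higher and 4.79% lower. The count was 2 without myoglobin replicate 2, 3 or 4 or without replicate 3 of myoglobin with dexamethasone, and 1 without replicate 1 of that group.

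Slc25a48 (ENSMUSG00000021509, chr13:56438355-56474239), the most abundant member per length, read 1109, 1056, 1040 and 990 with vehicle, 1103, 1156, 1151 and 1152 with myoglobin, and 1378, 1366, 1332 and 1694 with both. All 4 libraries with dexamethasone lay above all others, and replicate 4 was the highest. Means were 1049 ± 49.0, 1140 ± 25.1 and 1442 ± 169 (SD, n = 4 each). Dexamethasone changed it by 0.33 ± 0.06 (1.26-fold; limma adjusted p = 0.00529), and the call was kept in all 22 alternatives, leaving out replicate 4 included. With myoglobin alone the change was 0.12 ± 0.06 (limma adjusted p = 0.217), and for both against vehicle it was 0.45 ± 0.06 (limma adjusted p = 8.07e-05).

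Slc25a17 (chr15:81318911-81360812), which carries cofactors across the peroxisomal membrane, read 575, 564, 564 and 559, then 514, 541, 554 and 507, then 620, 606, 566 and 760. Every library with dexamethasone exceeded every myoglobin library, the lowest by a small margin. Its rise was 0.26 ± 0.07 (1.2-fold; limma adjusted p = 0.031, above 0.05 in 5 of 22 alternatives, up to 0.0978). These were the fit of the 2 groups alone and the fits without myoglobin replicate 1, 2 or 4 or without replicate 1 of myoglobin with dexamethasone. Against vehicle the group with both agents differed by 0.16 ± 0.07 (limma adjusted p = 0.0837).

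Slc25a29 (chr12:108825873-108835883), a carrier of basic amino acids, read 81, 69, 58 and 63, then 72, 60, 59 and 55, then 86, 74, 92 and 102. Dexamethasone libraries lay above all myoglobin libraries and overlapped with vehicle. The rise was 0.52 ± 0.13 (1.43-fold; limma adjusted p = 0.0284). It was lost without myoglobin replicate 2, 3 or 4 and without replicate 1, 3 or 4 of myoglobin with dexamethasone (limma adjusted p up to 0.0928). Against vehicle both agents gave 0.38 ± 0.13 (limma adjusted p = 0.0421, lost in 11 of 22 alternatives, including the fit without replicate 4). Its neighbour Slc25a47 begins at position 108836046 on the opposite strand in the table's coordinates, while its RefSeq promoter lies at chr12:108850879-108851128. Slc25a47 read 70 to 96, 73 to 94 and 78 to 87 and was not called.

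The third comparison set both agents against vehicle and shares groups with the other two, so its calls are no separate evidence. Of 41 members 13 were higher and 5 lower, 43.9%, beside 28.6% of all tested genes, of which 13.9% were higher and 14.6% lower. Groups were apart in 14 members that were higher and 5 that were lower, beside 28.6% of all genes. The median change was 0.10 for members and 0.00 for all tested genes. Without replicate 4, 9 members were higher and 4 lower, and 29.1% of all genes were called. The rises of Slc25a11, Slc25a29, Slc25a39 and Slc25a46 and the fall of Slc25a45 were then not called. The count of members called higher was also down to 7 without vehicle replicate 2 or 3 and 8 without vehicle replicate 4. The count called lower was 3 without vehicle replicate 1, 2 or 3, myoglobin replicate 2 or 3, or replicate 2 of myoglobin with dexamethasone. After upper-quartile scaling or scaling to equal totals 7 members were higher and 5 lower, and 31.5% and 37.1% of all calls were higher against 48.8% as deposited. For myoglobin against vehicle, upper-quartile scaling gave 2 members higher and 5 lower, and 34.4% of all calls higher against 47.5%.

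Besides the genes described above, the third comparison called Slc25a40, Slc25a38, Slc25a1, Slc25a11, Slc25a16, Slc25a39 and Slc25a46. Slc25a39 and Slc25a40 import glutathione. Slc25a40 (chr5:8422850-8454797) read 156, 162, 171 and 172 with vehicle, 156, 140, 145 and 150 with myoglobin, and 134, 125, 139 and 111 with both, lowest with both agents in every library. Its change was -0.16 ± 0.08 with myoglobin (limma adjusted p = 0.186), -0.22 ± 0.08 on adding dexamethasone (limma adjusted p = 0.114), and -0.38 ± 0.08 for both against vehicle (0.769-fold; limma adjusted p = 0.00222, kept in all 22 alternatives). Slc25a39 read 486, 480, 509 and 495, then 506, 521, 569 and 526, then 526, 542, 526 and 700, and its rise of 0.21 ± 0.08 for both against vehicle (limma adjusted p = 0.049) was lost in 15 of 22 alternatives, with 0.11 ± 0.04 without replicate 4 of that group (limma adjusted p = 0.0594). The 2 glutathione carriers had changes of opposite sign, and the difference between them was not tested.

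Slc25a38, the glycine carrier of haem synthesis, read 199, 203, 234 and 219 with vehicle, 229, 223, 247 and 242 with myoglobin, and 255, 243, 254 and 255 with both. Libraries with both agents were all above vehicle, and those of myoglobin overlapped with vehicle. The change for both against vehicle was 0.24 ± 0.06 (1.18-fold; limma adjusted p = 0.00856), kept in all 22 alternatives. The citrate carrier Slc25a1, which supplies cytosolic acetyl groups, read 500, 508, 533 and 506, then 533, 568, 566 and 550, then 545, 577, 563 and 700, with both treated groups at or above the highest vehicle value. It changed by 0.21 ± 0.06 for both against vehicle (limma adjusted p = 0.0197), kept in all 22 alternatives, and by 0.13 ± 0.04 without replicate 4 of that group (limma adjusted p = 0.0135). Slc25a11, a carrier of the malate-aspartate shuttle, rose by 0.17 ± 0.06 (limma adjusted p = 0.0406), Slc25a16, linked to coenzyme A transport, by 0.15 ± 0.05 (limma adjusted p = 0.0386) and Slc25a46, an outer membrane protein, by 0.14 ± 0.05 (limma adjusted p = 0.0383), and their calls were lost in 13, 11 and 11 of 22 alternatives, for Slc25a11 and Slc25a46 also without replicate 4 of that group, where the change of Slc25a11 was 0.10 ± 0.04. Slc25a11 read 485 to 514 with vehicle, 498 to 535 with myoglobin and 516 to 647 with both agents, and its exons overlap on the opposite strand those of Rnf167, which fell. Slc25a16 read 279 to 308, 292 to 321 and 310 to 345, and Slc25a46 read 410 to 432, 405 to 459 and 441 to 491. In all 3 genes the group with both agents lay above every vehicle library.

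The mitoferrins import iron for haem and iron-sulphur synthesis and neither was called. Slc25a37 (chr14:69241848-69285112) read 1064, 1083, 1095 and 1120 with vehicle, 1145, 1187, 1182 and 1243 with myoglobin, and 1134, 1164, 1129 and 1286 with both. Both treated groups lay above every vehicle library, and the change with myoglobin was 0.12 ± 0.04 (limma adjusted p = 0.0694, under 0.05 in 5 of 22 alternatives, among them the fit without replicate 4 of myoglobin with dexamethasone). Slc25a28 read 349 to 410, 387 to 395 and 361 to 385, with changes of 0.04, -0.07 and -0.03 in the 3 comparisons. The acylcarnitine carrier Slc25a20 read 221 to 253, 223 to 237 and 226 to 260, and the groups overlapped. Of the 9 tested amino acid and glutathione carriers, limma called 0 with myoglobin, where 2 had an unadjusted p under 0.05, beside 18.3% of all tested genes called. Without replicate 4 of myoglobin with dexamethasone 1 of the 9 was called, the aspartate-glutamate carrier Slc25a13, higher.

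**Figure D4:**
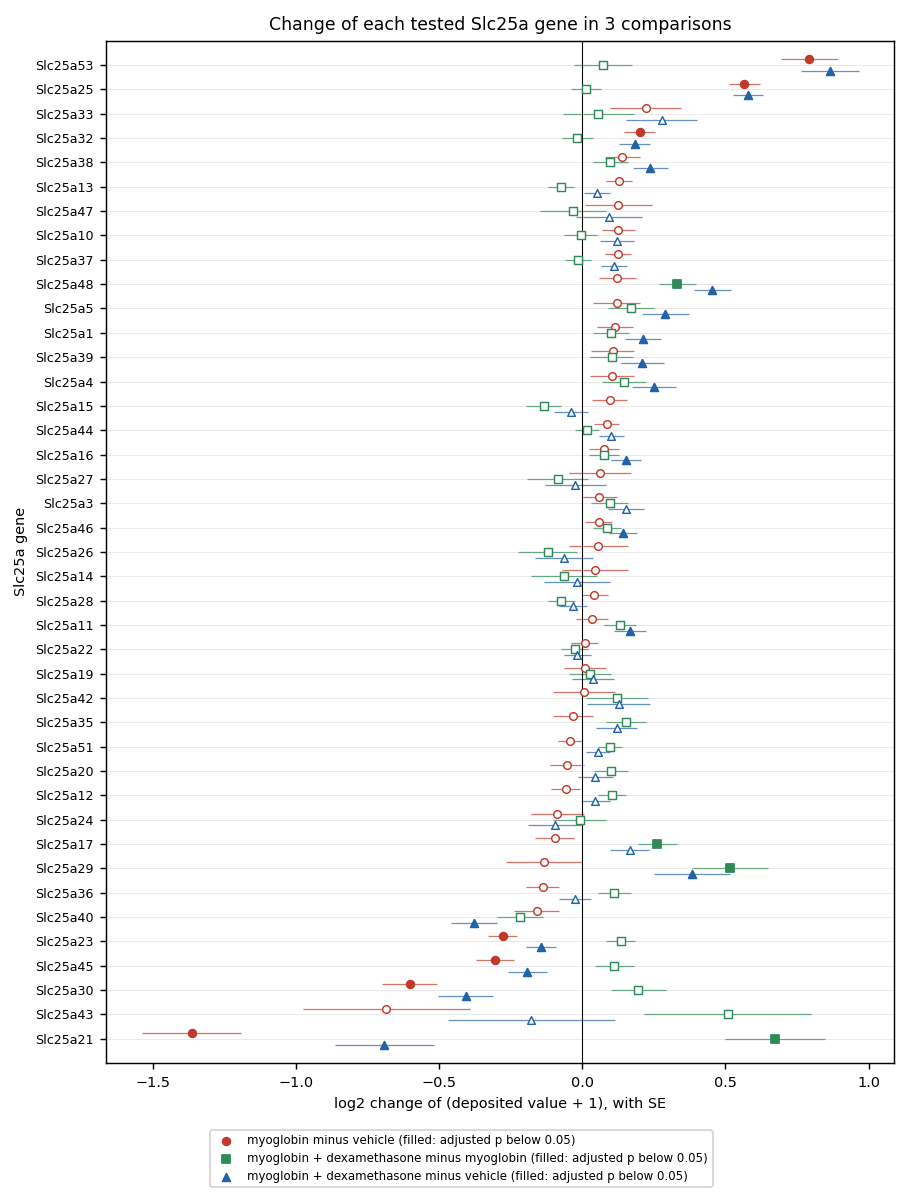
Log2 change with SE of the 41 tested Slc25a genes in the 3 comparisons, ordered by the change with myoglobin, with filled symbols for an adjusted p below 0.05. The symbols of Slc25a21 span -1.36 to 0.67, and those of Slc25a53 and Slc25a25 lie right of 0.5 for both comparisons with vehicle.

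Other genes of the pathway, in lists chosen with earlier results known, were read in the same way. Of all tested genes, 8.71% were called higher and 9.62% lower with myoglobin. The shares were 3.08% and 3.9% on adding dexamethasone, and 13.9% and 14.6% with both agents against vehicle. The list counts in this and the next paragraph stand beside these shares, and no list was tested against them. Of 13 tested import genes, 2 were higher and 0 lower with myoglobin, Timm9 by 0.21 ± 0.07 and Timm29 by 0.14 ± 0.05 (limma adjusted p = 0.0452 and 0.0468), and with both agents Timm29 alone was called (0.16 ± 0.05, limma adjusted p = 0.0191). Of 22 other mitochondrial membrane transporters, 2 were higher and 1 lower: the pyruvate carrier subunit Mpc1 by 0.35 ± 0.10 (limma adjusted p = 0.0288), the serine carrier Sfxn1 by 0.17 ± 0.05 (limma adjusted p = 0.0291) and Sfxn4 by -0.70 ± 0.16 (limma adjusted p = 0.00567). On adding dexamethasone limma called 0 of these 22, of which 7 had an unadjusted p under 0.05. With both agents against vehicle 5 were higher and 1 lower, led by the calcium uptake regulator Micu2 (0.21 ± 0.05, limma adjusted p = 0.00306), Mpc1 (0.46 ± 0.10, limma adjusted p = 0.00425) and Sfxn1 (0.18 ± 0.05, limma adjusted p = 0.0159), with Sfxn4 lower (-0.51 ± 0.16, limma adjusted p = 0.0267). Without replicate 4 of the group with both agents, 4 of these transporters were higher there and 1 lower. With myoglobin they were then 3 and 1. Among 13 shuttle enzymes, the malic enzyme Me1 rose with myoglobin by 0.37 ± 0.06 (limma adjusted p = 3.42e-04) and the transaminase Got1 by 0.24 ± 0.08 (limma adjusted p = 0.0412). Pyruvate carboxylase Pcx fell by 0.32 on the log2 scale (limma adjusted p = 0.00151) and rose by 0.28 ± 0.06 on adding dexamethasone (limma adjusted p = 0.0111). With both agents against vehicle 8 of the 13 were higher and 0 lower, among them Me1 (0.49 ± 0.06, limma adjusted p = 2.43e-05), Got1 (0.30 ± 0.08, limma adjusted p = 0.00801) and the citrate lyase Acly (0.30 ± 0.08, limma adjusted p = 0.0129). Without replicate 4 of the group with both agents they were 7 and 1, and with myoglobin 4 shuttle enzymes were higher and 1 lower, against 2 and 1.

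In the carnitine shuttle of 5 tested genes, Cpt1a, the entry enzyme of fatty acid oxidation, fell with myoglobin by 0.51 on the log2 scale (limma adjusted p = 9.31e-08), its mean going from 602 ± 9.54 to 422 ± 10.2. On adding dexamethasone it rose by 0.15 ± 0.04 (limma adjusted p = 0.0232), with Crat by 0.29 ± 0.06 and Crot by 0.25 ± 0.05, while the carrier Slc25a20 was not called. Among 14 haem and iron-sulphur genes, Alas1, the first enzyme of haem synthesis, was the 1 gene called with myoglobin, at 392.2 ± 9.64 with vehicle, 196 ± 9.74 with myoglobin and 213 ± 18.1 with both, a change of -1.0 ± 0.06 with myoglobin (limma adjusted p = 1.56e-08). With both agents against vehicle 3 were higher and 2 lower, among them the scaffold Iscu (0.23 ± 0.06, limma adjusted p = 0.013) and Cpox (0.20 ± 0.07, limma adjusted p = 0.0315), both higher, and without replicate 4 they were 1 and 2. Of 14 genes of mitochondrial mass and biogenesis limma called 0 with myoglobin, 3 at an unadjusted p under 0.05, and without replicate 4 of the other group 3 higher and 1 lower. Ppargc1a, a coactivator of biogenesis, rose on adding dexamethasone (0.31 ± 0.08, limma adjusted p = 0.0287). With both agents against vehicle Esrra was higher (0.33 ± 0.08, limma adjusted p = 0.00486), and Nrf1 (-0.22 ± 0.06, limma adjusted p = 0.0106), Gabpa (-0.15 ± 0.04, limma adjusted p = 0.0184) and Twnk (-0.14 ± 0.05, limma adjusted p = 0.0413) were lower. Without replicate 4 of the group with both agents, 3 of the biogenesis genes were higher there and 3 lower. Among the carrier-fold genes with other symbols, 3 of 5 were tested and Mtch2 was higher with both agents against vehicle (0.15 ± 0.05, limma adjusted p = 0.027).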

How the data were processed

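Values are the deposited table's, read as a normalised score: the authors deposited whole numbers that behave as read counts divided by a library factor and rounded, and they are not raw counts. Per the submitters' processing notes the build was mm10 and the tools included DESeq2 1.36.0, featureCounts 2.0.3, Picard 2.27.4, STAR 2.7.10a and Trimmomatic 0.39, with roles not given in the sources used here. Changes were fitted with limma-trend 3.58.1 (R 4.3.3) on log2 values with a pseudocount of 1, all 3 groups sharing 1 spread, over the 14558 genes at 10 or above in 4 or more libraries, two-sided, Benjamini-Hochberg adjusted within each of 3 comparisons, and called at an adjusted p below 0.05. No raw counts were used, so a count model was not fitted. The fit was tested on simulated data. Coordinates are those of the table, equal to GENCODE M21 for all 43 members, which gave exon lengths. The named members are those called in at least 1 comparison and 9 fixed ones (Slc25a37, Slc25a28, Slc25a20, Slc25a39, Slc25a40, Slc25a38, Slc25a4, Slc25a5 and Slc25a25), and of each pathway list up to 4 called genes with the smallest p, of which some are not reported here. Members and lists were chosen with earlier results of these data known. Plots used Python 3.11.15, pandas 2.3.3 and matplotlib 3.10.9. Alternatives changed the pseudocount, filter, scaling, block, groups fitted, library weights and libraries left out. Protein sequences were not used here.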

Additional observations from a re-analysis of the deposited data

Results flagged for a closer look

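In 8 of 123 sets of 4 libraries (each member in each group) 1 library lay far from the other 3 by Dixon's criterion, where chance gives about 1 in 20, or 6.15. Of these, 5 were replicate 4 of myoglobin with dexamethasone: Slc25a3 at 1383 against 1080 to 1103, Slc25a4 at 836 against 615 to 629, Slc25a5 at 709 against 505 to 531, Slc25a39 at 700 against 526 to 542, and Slc25a48 at 1694 against 1332 to 1378. The other 3 were Slc25a15 in vehicle replicate 1, at 208 against 202 to 203, Slc25a38 in replicate 2 of myoglobin with dexamethasone, at 243 against 254 to 255, and Slc25a48 in myoglobin replicate 1, at 1103 against 1151 to 1156.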

How the results depend on the processing

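Under the 22 alternatives run, called changes of the named members kept their sign. Members called higher with myoglobin, 3 as reported, were 5 with the replicate block, 9 in a fit of the 2 groups alone, 10 with library weights, and 2 to 10 with 1 library left out, the 10 without replicate 4 of myoglobin with dexamethasone. Library weights called 4314 genes in all, against 2669. For adding dexamethasone, members higher were 4 as reported, 2 in a fit of the 2 groups alone and 1 to 4 with 1 library left out, the 1 without replicate 1 of myoglobin with dexamethasone. All genes called, 1016, were 1788 with the replicate block, 639 in the fit of the 2 groups, 1625 with weights and 549 to 1279 with 1 library left out (549 without myoglobin replicate 4, 616 without myoglobin replicate 2). For both agents against vehicle, members higher, 13 as reported, were 7 after upper-quartile scaling, equal totals or a fit of the 2 groups alone, and 7 to 12 with 1 library left out, with 7 without vehicle replicate 2 or 3 and 8 without vehicle replicate 4. Members lower, 5 as reported, were 3 without a filter and 3 to 5 with 1 library left out. With the replicate block 16 members were higher and 5 lower. The block lost no member's call against vehicle and added Slc25a13, Slc25a37 and Slc25a36 (lower) with myoglobin, and Slc25a3, Slc25a33 and Slc25a37 with both agents. Deviations of same-numbered libraries correlated at -0.015 to 0.456, over 0.1 in 9 of 12 pairs. The labels do not tie the numbers to mice and not every pair was over 0.1, the rule set for pairing, so the reported fit has no block. In 10 of 12 cases a library correlated best with its own number. Upper-quartile scaling gave 941 genes higher and 1797 lower with myoglobin, against 1268 and 1401, and 1347 and 2935 for both agents against vehicle, against 2029 and 2132. Equal totals gave 1565 and 2648 there. The cause of these shifts was not tested. Depth limits Slc25a21, Slc25a43 and the 2 untested members most.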
